A study of Mus musculus with 6 samples.

Results

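The genes described here are the TGF-beta ligands Tgfb1, Tgfb2 and Tgfb3, the receptors Tgfbr1, Tgfbr2 and Tgfbr3, and the SMAD genes Smad2, Smad3 and Smad7. They were taken by gene symbol from a table of 53465 mouse genes, each of the 9 symbols matched 1 row, and all 9 were among the 11510 genes with enough counts to be tested. RNA was sequenced from 6 cell lines grown from liver tumours of C57BL/6 mice, 3 labelled Myc_Utx and 3 labelled Myc_p53, each line from the tumour of another mouse. The Myc_Utx lines (2A, 2B and 2D) came from tumours deficient in Kdm6a, which encodes the histone demethylase UTX, and the Myc_p53 lines (1, 2 and 3) from tumours with a knockout of the p53 gene, which served as control. Tumours were raised in 8-week-old female mice by tail vein injection of a Myc transposon together with a plasmid carrying Cas9 and a guide RNA, so every line carries the Myc transgene and a Cas9-made lesion. Myc in these lines is driven by a vector promoter, and lines were passaged until they looked free of other cell types. No line with Myc alone was sequenced, and the effects of losing Kdm6a and of losing p53 cannot be told apart in any comparison below.

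TGF-beta is secreted in a latent form and, once released, binds a complex of the type II receptor Tgfbr2 and the type I receptor Tgfbr1. The co-receptor Tgfbr3 (betaglycan) presents ligand, Tgfb2 above all, to that complex. The activated type I receptor phosphorylates the receptor SMADs Smad2 and Smad3, which join Smad4, enter the nucleus and regulate target genes, among them Smad7, whose product blocks the receptor in return. In the liver the pathway is known both for arresting hepatocyte growth and for driving fibrosis and invasion.

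Total counts per library were between 4656103 and 6937497. Across genes, Pearson's r of log2 CPM was 0.951 to 0.957 within Myc_Utx, 0.888 to 0.944 within Myc_p53 and 0.846 to 0.883 between the groups, so the Myc_p53 lines were less alike. CPM here means counts scaled to a common library size with TMM, which also corrects for differences in composition. As a check of the labels, Kdm6a had 39.7, 45.7 and 49.0 CPM in Myc_Utx 2A, 2B and 2D and 69.5, 64.5 and 42.5 CPM in Myc_p53 1, 2 and 3. The groups overlapped because Myc_p53 3 was within the Myc_Utx range (log2 fold change -0.39, SE 0.22, adjusted p = 0.243, edgeR), and a count per gene does not show whether the reads carry an edit. Trp53, the p53 gene, had 276 to 295 CPM in Myc_Utx and 32.4 to 35.8 CPM in Myc_p53 (log2 fold change 3.07, SE 0.11, adjusted p = 0.000488). The liver label was checked against 12 hepatocyte markers, of which Alb did not exceed 4.87 CPM in any line. Afp, Apoa1, Ttr, Serpina1a and Cps1 did not exceed 3.16 CPM. Hnf4a and Trf reached 10.1 and 6.27 CPM in Myc_p53 lines and at most 0.598 CPM in Myc_Utx lines. The summed level of the 12 markers was 60.3 to 271 CPM in Myc_Utx and 61.5 to 1223 CPM in Myc_p53. Most of it was Krt8 and Krt18 in Myc_p53 1 and 3 and Ass1 in Myc_Utx lines. Ass1, an enzyme of the urea cycle, was higher in Myc_Utx lines (57.2 to 176 against 2.05 to 5.13 CPM, log2 fold change 5.27, adjusted p = 0.0127, edgeR), and Apob, the apolipoprotein of liver lipoproteins, was lower (0 to 1.12 against 13.2 to 53.9 CPM, -5.80, adjusted p = 0.0240). Apob had 0, 6 and 1 counts in Myc_Utx 2A, 2B and 2D. It entered the test through the Myc_p53 lines only, so its call is given with no weight.

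Promoter sequences are shown for the members whose groups did not overlap, Tgfb1 and Smad3, and for Tgfb2. Among the member promoters searched, that of Tgfb2 carried the most SMAD boxes. Each runs from 250 bases before to 50 bases after the start site in RefSeq (GRCm38.p6), 5′ to 3′ on the strand of the gene. Capitals mark the SMAD box CAGAC and the GC box GGGCGG on either strand, and the AP-1 motif TGANTCA was searched too. None of these motifs overlapped another in the sequences printed.
Tgfb1, chr7:25686752-25687051, plus strand: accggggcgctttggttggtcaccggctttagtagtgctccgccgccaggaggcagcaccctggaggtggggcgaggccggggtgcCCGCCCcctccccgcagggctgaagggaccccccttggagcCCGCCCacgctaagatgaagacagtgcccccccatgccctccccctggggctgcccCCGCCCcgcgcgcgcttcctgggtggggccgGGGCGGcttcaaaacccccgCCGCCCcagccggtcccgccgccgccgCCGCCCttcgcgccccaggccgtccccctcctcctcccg
Smad3, chr9:63757945-63758244, minus strand: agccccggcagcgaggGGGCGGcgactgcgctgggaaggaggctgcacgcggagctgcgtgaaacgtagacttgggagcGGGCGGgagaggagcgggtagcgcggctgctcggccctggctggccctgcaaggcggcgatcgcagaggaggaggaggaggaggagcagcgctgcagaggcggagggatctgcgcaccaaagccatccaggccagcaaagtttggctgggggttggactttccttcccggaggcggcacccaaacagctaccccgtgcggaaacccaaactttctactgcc
Tgfb2, chr1:186705940-186706239, minus strand: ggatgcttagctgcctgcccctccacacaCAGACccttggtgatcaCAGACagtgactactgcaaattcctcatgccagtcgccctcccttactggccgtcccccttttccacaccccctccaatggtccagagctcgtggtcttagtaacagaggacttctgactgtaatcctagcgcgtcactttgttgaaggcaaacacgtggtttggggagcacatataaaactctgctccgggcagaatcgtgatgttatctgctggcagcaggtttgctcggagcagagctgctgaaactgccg
The Tgfb1 promoter held 6 GC boxes and had a GC content of 77%, the Smad3 promoter held 2 GC boxes at 67.7%, and the Tgfb2 promoter held 2 SMAD boxes at 54.3%. Of the 9 members, 5 were found in the promoter table, the others being Tgfbr1 and Tgfbr2. Among 32851 promoters of the same length, 49.6% held a SMAD box, 35.7% a GC box and 7.81% an AP-1 motif. A match is a string of letters and no evidence of binding.

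Smad3 was the only member that passed the test. It was lower in Myc_Utx than in Myc_p53 lines, at 54.3 ± 11.9 against 162 ± 36.2 CPM (SD, n = 3 in each group), a 2.98-fold difference. Tgfb1 had the opposite direction, at 96.0 ± 35 against 41.0 ± 24.2 CPM, without overlap but with a spread too wide to pass. Of the 9 members, 1 (11.1%) had an adjusted p under 0.05 in the quasi-likelihood F test of edgeR, against 14.7% of all genes tested. At an unadjusted p under 0.05 there were 3 members (33.3%; Tgfb2, Tgfbr2 and Smad3) against 35.0% of all genes, and 2 members (22.2%) had no overlap between the groups against 42.0% of all genes (Smad3 lower, against 20.9%, and Tgfb1 higher, against 21.1%). These shares were near or below the background. The log2 fold change, given throughout as Myc_Utx over Myc_p53, was negative for 7 of the 9 members, with a median of -0.65 over the members and -0.01 over all genes tested. In RNA from whole cultures, fewer cells of a type and less RNA per cell cannot be told apart.

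**Figure D1:**
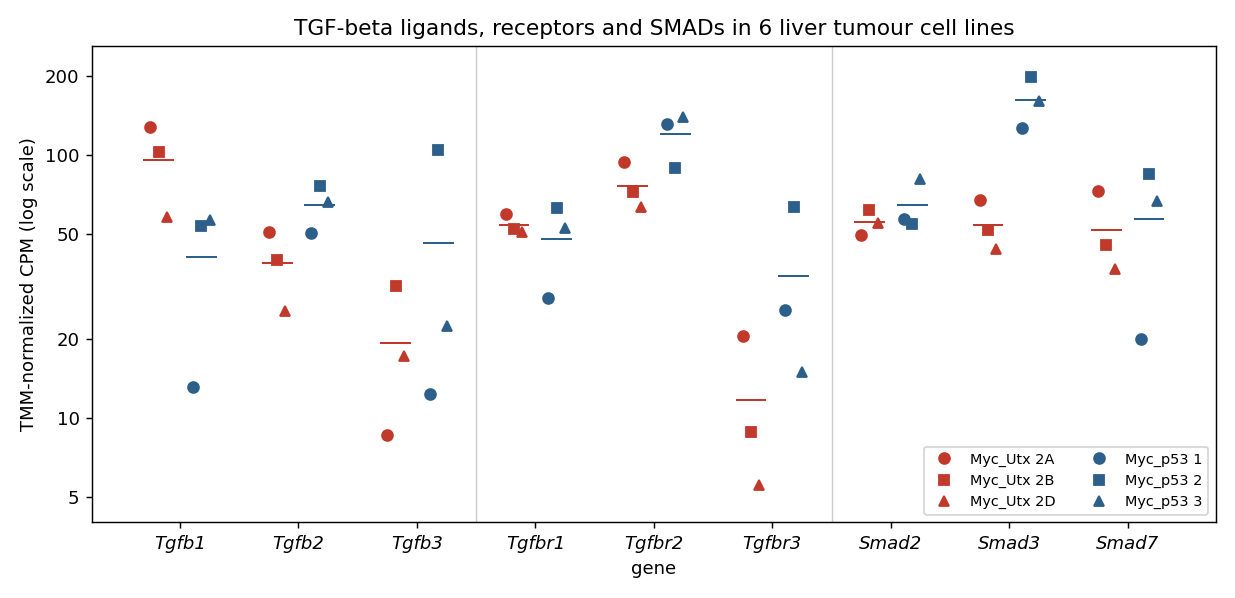
TMM-normalized CPM (log axis) of the 9 members in each cell line, with ligands on the left, receptors in the middle and SMADs on the right. Points are lines, red for Myc_Utx and blue for Myc_p53, and bars are group means (n = 3). Smad3 and Tgfb1 are the members whose groups do not overlap, and Tgfb3 and Tgfbr3 have 1 high line, Myc_p53 2.

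Tgfb1 (ENSMUSG00000002603, chromosome 7, 25687002 to 25705077, GRCm38), the most widely expressed TGF-beta isoform, had 127, 103 and 58.1 CPM in Myc_Utx 2A, 2B and 2D and 13.1, 53.6 and 56.3 CPM in Myc_p53 1, 2 and 3. Every Myc_Utx line was above every Myc_p53 line, but Myc_Utx 2D exceeded Myc_p53 3 only slightly, and the levels of the 6 lines spanned a 9.70-fold range. The log2 fold change was 1.23 (SE 0.56, adjusted p = 0.175). An exact permutation test of the group means gave a two-sided p = 0.1, and no comparison of 3 lines with 3 can go lower. Without Myc_p53 1, the line with the lowest level, the log2 fold change of Tgfb1 was 0.80.

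Tgfb2 (ENSMUSG00000039239, chromosome 1, 186622792 to 186705989), the isoform that depends most on betaglycan, had 50.9, 39.9 and 25.4 CPM in Myc_Utx 2A, 2B and 2D. In Myc_p53 1, 2 and 3 it had 50.3, 76.4 and 66.2 CPM. The groups met at Myc_Utx 2A and Myc_p53 1, which had almost the same level, and the log2 fold change of -0.73 (SE 0.29) did not pass the test (edgeR, adjusted p = 0.129).

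Tgfb3 (ENSMUSG00000021253, chromosome 12, 86056745 to 86079041), the isoform with a known part in palate fusion and wound repair, had 8.58, 31.8 and 17.1 CPM in Myc_Utx 2A, 2B and 2D. It had 12.3, 104 and 22.4 CPM in Myc_p53 1, 2 and 3. Only Myc_p53 2 stood above the other lines, and Myc_p53 1 and 3 lay inside the Myc_Utx range. The log2 fold change was -1.26 (SE 0.86, adjusted p = 0.337, edgeR) and turned to 0.15 without Myc_p53 2. Exons of Tgfb2 and Tgfb3 are in part overlapped by antisense or unclassified transcripts on the opposite strand, over 2.14% of Tgfb2 exon bases and by 2 transcripts over 4.82% and 7.60% of Tgfb3 exon bases, and whether the counting used strand is not given in the sources used here.

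Among the receptors, none passed the test in either direction with edgeR (1 at an unadjusted p under 0.05, and 1 with DESeq2, Tgfbr2 in both). Tgfbr2 (ENSMUSG00000032440, chromosome 9, 116084293 to 116175360), the receptor that binds ligand first, had 93.9, 72.1 and 63.2 CPM in Myc_Utx 2A, 2B and 2D. In Myc_p53 1, 2 and 3 it had 131, 89.2 and 139 CPM. Myc_p53 2 fell below Myc_Utx 2A, and the other Myc_p53 lines were above every Myc_Utx line. The log2 fold change was -0.65 (SE 0.23, adjusted p = 0.0979, edgeR). Its adjusted p was 0.0443 with DESeq2, which called 24.2% of the genes it gave an adjusted p, and 0.0442 without Myc_p53 2.

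Tgfbr1 (ENSMUSG00000007613, chromosome 4, 47353222 to 47414931), the kinase that phosphorylates the receptor SMADs, did not separate the groups. It had 59.4, 52.1 and 50.8 CPM in Myc_Utx 2A, 2B and 2D and 28.6, 63.0 and 52.6 CPM in Myc_p53 1, 2 and 3. The Myc_Utx lines were inside the Myc_p53 range, whose low end was Myc_p53 1, and the log2 fold change was 0.17 (SE 0.29, adjusted p = 0.704, edgeR). Without Myc_p53 1 it was -0.10.

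Tgfbr3 (ENSMUSG00000029287, chromosome 5, 107106570 to 107289629) had 20.5, 8.80 and 5.57 CPM in Myc_Utx 2A, 2B and 2D, from 103, 47 and 25 counts. It had 25.6, 63.6 and 15 CPM in Myc_p53 1, 2 and 3. The groups overlapped, since Myc_Utx 2A was above Myc_p53 3, and the highest and lowest lines differed 11.4-fold. With a log2 fold change of -1.57 (SE 0.68, adjusted p = 0.156, edgeR), Tgfbr3 had nearly the same estimate as Smad3 but a larger SE, 0.68 against 0.23. The estimate was -0.79 without Myc_p53 2. A same-strand transcript of unclear type overlaps 4.54% of Tgfbr3 exon bases.

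Smad3 (ENSMUSG00000032402, chromosome 9, 63646767 to 63757994), the receptor SMAD that binds DNA directly, had 67.2, 51.9 and 43.9 CPM in Myc_Utx 2A, 2B and 2D. In Myc_p53 1, 2 and 3 it had 126, 199 and 161 CPM. All Myc_p53 lines were well above all Myc_Utx lines, and the coefficient of variation within a group was 21.8% and 22.3%. The log2 fold change was -1.57 (SE 0.23, adjusted p = 0.0169, edgeR). With a cell line left out, the log2 fold change stayed between -1.74 and -1.40, but the adjusted p was above 0.05 without Myc_Utx 2A (0.0614), 2B (0.0673) or 2D (0.0698) or Myc_p53 3 (0.0572). Calls over all genes also varied in these fits, from 3 to 836 higher and from 1 to 1118 lower.

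Smad2 (ENSMUSG00000024563, chromosome 18, 76241580 to 76305731), the other receptor SMAD of the pathway, had 49.5, 62.0 and 55.2 CPM in Myc_Utx 2A, 2B and 2D and 57.2, 54.7 and 80.8 CPM in Myc_p53 1, 2 and 3. Only Myc_p53 3 lay outside the range of the Myc_Utx lines, and the log2 fold change was -0.21 (SE 0.19, adjusted p = 0.478, edgeR). Smad7 (ENSMUSG00000025880, chromosome 18, 75367529 to 75395935), the inhibitory SMAD, had 73.0, 45.5 and 37.0 CPM in Myc_Utx 2A, 2B and 2D and 19.9, 84.9 and 67.0 CPM in Myc_p53 1, 2 and 3. The Myc_Utx lines were inside the range of the Myc_p53 lines (log2 fold change -0.14, SE 0.53, adjusted p = 0.868, edgeR), and the sign turned without Myc_Utx 2D (0.07) or without Myc_p53 2 (0.26).

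**Figure D2:**
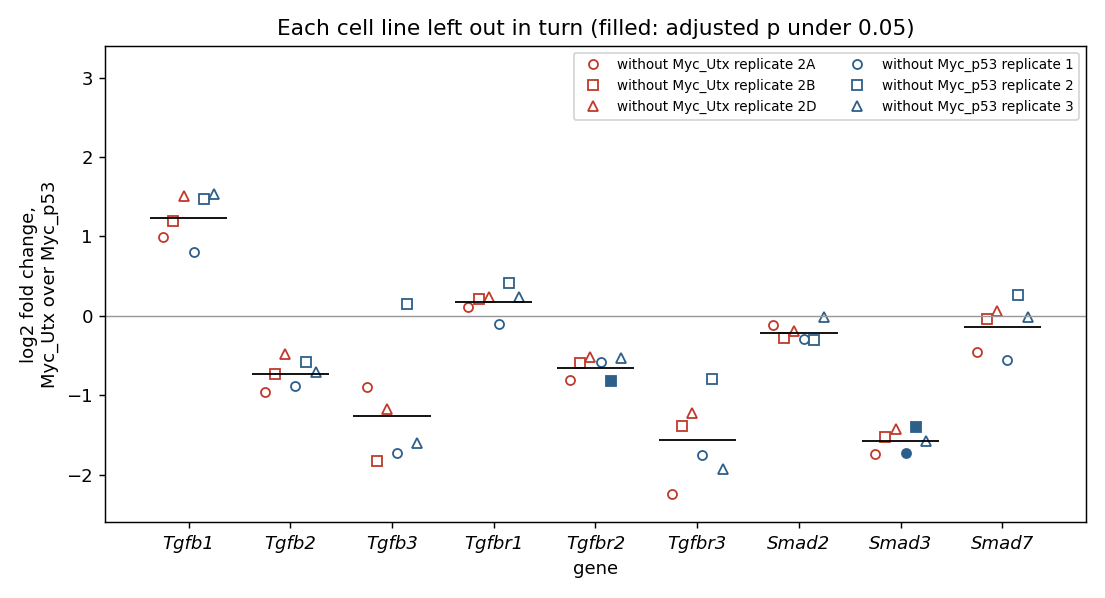
Log2 fold change (Myc_Utx over Myc_p53) of each member when 1 line is left out, red for a Myc_Utx and blue for a Myc_p53 line left out, filled where the adjusted p was under 0.05. Black bars are the values with all 6 lines. Smad3 stays between -1.74 and -1.40, while Tgfb3, Tgfbr1 and Smad7 change sign.

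The other 5 SMAD genes belong to the BMP branch (Smad1, Smad5 and Smad9 as receptor SMADs, Smad6 as inhibitor) or serve both branches (Smad4). Smad1 had 42.5, 48.1 and 41.6 CPM in Myc_Utx 2A, 2B and 2D and 68.1, 84.7 and 68.3 CPM in Myc_p53 1, 2 and 3, without overlap (log2 fold change -0.74, SE 0.15, adjusted p = 0.0284, edgeR). Smad4 had 137, 128 and 116 CPM against 164, 176 and 182 CPM in the same order, also without overlap (log2 fold change -0.46, SE 0.11, adjusted p = 0.0433). Smad5, Smad6 and Smad9 had no overlap either, with log2 fold changes of -0.37 (adjusted p = 0.0716), -1.23 (adjusted p = 0.0949) and -2.21 (adjusted p = 0.0657). For Smad6 the gap was narrow, with 23.3 CPM in Myc_Utx 2A and 24.7 CPM in Myc_p53 1. Smad9 was high in Myc_p53 2 (173 CPM), with 40.8 and 42.8 CPM in Myc_p53 1 and 3 and 11.4 to 22.7 CPM in Myc_Utx lines. Counted over all 8 SMAD genes, the log2 fold change was negative for 8 with all lines and for 7 without Myc_Utx 2D or without Myc_p53 2. Of the 8, 3 were called lower, against 7.69% of all genes tested, and 6 had every Myc_Utx line below every Myc_p53 line, against 20.9% of all genes. The genes and their number were chosen with earlier results known, and no test of the list was made. With a line left out, Smad4 passed in none of the 6 fits (adjusted p 0.0623 to 0.147) and Smad1 in 2 of 6 (0.0337 to 0.112). In the 6 alternatives with all lines, Smad4 passed in 5 (highest adjusted p 0.0995, edgeR) and Smad1 in 6.

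**Figure D3:**
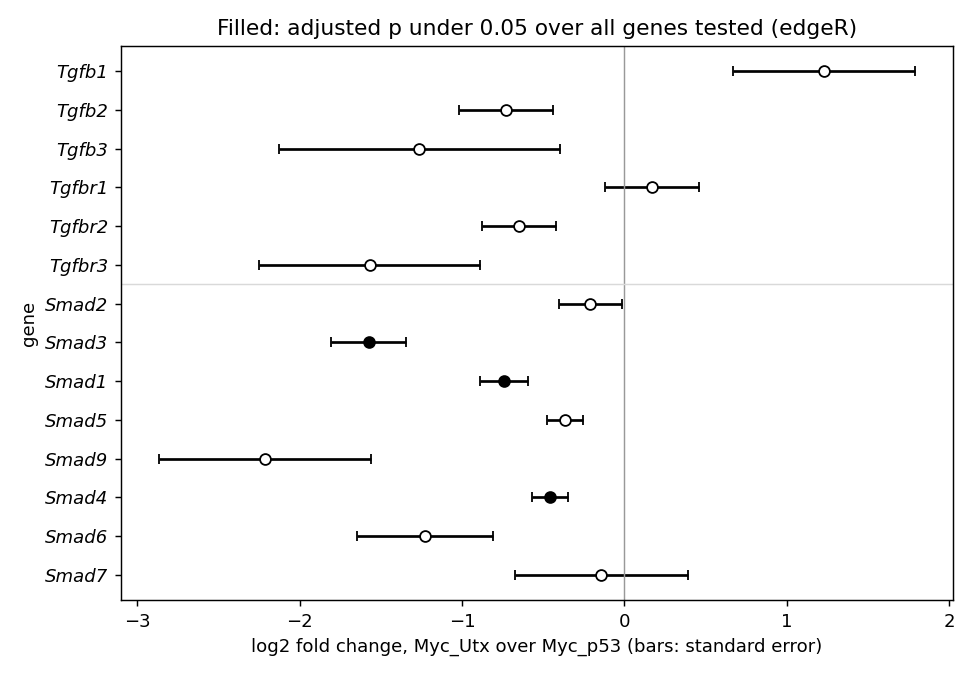
Log2 fold change (Myc_Utx over Myc_p53) with its standard error for the 6 ligand and receptor genes and the 8 SMAD genes, filled where the adjusted p over all genes tested was under 0.05. All 8 SMAD genes lie left of 0, and Smad3, Smad1 and Smad4 are the filled ones.

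To compare levels between genes, CPM was divided by the transcript length in the table, giving CPM per kilobase. In Myc_p53 lines Smad3 had the highest level of the 9 members, 29.2 ± 6.52 CPM per kilobase (SD, n = 3), followed by Smad2 (18.1 ± 4.07), Tgfbr2 (14.7 ± 3.30), Tgfb3 (13.7 ± 14.9), Smad7 (12.7 ± 7.42), Tgfb2 (11.1 ± 2.27), Tgfb1 (8.13 ± 4.80), Tgfbr1 (7.36 ± 2.70) and Tgfbr3 (5.30 ± 3.90). Of the 8 pairs of neighbours in this order, only Smad3 and Smad2 did not overlap between lines. They nearly touched, the lowest Smad3 being 22.81 and the highest Smad2 22.78 CPM per kilobase. In Myc_Utx lines Tgfb1 came first with 19.0 ± 6.95 CPM per kilobase, then Smad2 (15.7 ± 1.77), Smad7 (11.5 ± 4.16), Smad3 (9.80 ± 2.14), Tgfbr2 (9.33 ± 1.93), Tgfbr1 (8.28 ± 0.715), Tgfb2 (6.68 ± 2.21), Tgfb3 (5.67 ± 3.48) and Tgfbr3 (1.78 ± 1.20). All 8 neighbouring pairs overlapped there. Tgfbr3 was last in both groups. The table gives Smad2 a length of 3549 bases, while the union of its exons in GENCODE M21 is 8781 bases, at which its level would be 6.33 CPM per kilobase in Myc_Utx and 7.32 in Myc_p53 lines.

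On the same scale, Tgfb1 made up 59.8% ± 7.97 (SD, n = 3) of the summed level of the 3 ligands in Myc_Utx and 25.0% ± 11.5 in Myc_p53 lines, a difference of 34.8 percentage points. By line, its share was 69.0%, 55.5% and 54.9% in Myc_Utx 2A, 2B and 2D and 17.4%, 19.5% and 38.2% in Myc_p53 1, 2 and 3. Tgfb1 was the leading ligand in each Myc_Utx line, while Tgfb2 led in Myc_p53 1 (58.2%) and, by a small margin, in Myc_p53 3 (39.1%), and Tgfb3 led in Myc_p53 2 (56.4%). The share of Tgfb2 was 21.2% ± 2.63 against 40.5% ± 17.0, with Myc_p53 2 (24.2%) just above Myc_Utx 2A (24.0%). Among the receptors, Tgfbr1 took 43.3% ± 4.62 in Myc_Utx and 26.4% ± 7.41 in Myc_p53 lines. Among the SMADs, Smad3 took 26.4% ± 2.05 against 49.1% ± 4.89, with 25.0% to 28.7% in the Myc_Utx and 43.5% to 52.6% in the Myc_p53 lines. These levels of the SMAD shares rest on the deposited Smad2 length. With the longest GENCODE M21 transcript of each gene (8089 bases for Smad2), the difference in the share of Smad3 was -24.9 percentage points, against -22.8. These 4 shares did not overlap between the groups (two-sided exact permutation p = 0.1 for each, 0.225 after Benjamini-Hochberg adjustment over the 9 shares). The other 5 shares overlapped, with exact permutation p from 0.2 to 0.5. Since the shares of a trio sum to 100%, a rise of 1 member lowers the others.

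**Figure D4:**
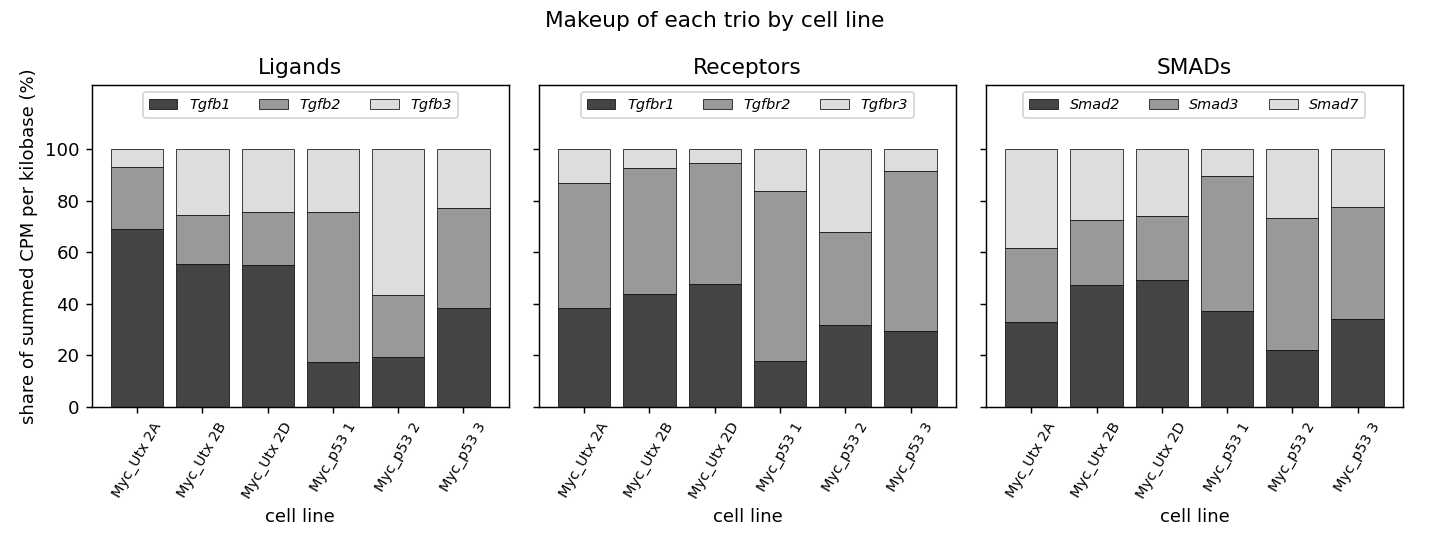
Share of each gene in the summed CPM per kilobase of its trio (ligands, receptors, SMADs), in percent, stacked for each cell line. Tgfb1 takes 54.9% to 69.0% of the ligands in Myc_Utx and 17.4% to 38.2% in Myc_p53 lines, and Smad3 25.0% to 28.7% against 43.5% to 52.6% of the SMADs.

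Around the 9 members, 163 further genes of the pathway and of its BMP and activin branches were listed by role, of which 119 were tested. Of these, 8 were higher (6.72%, against 6.99% of all genes) and 9 lower (7.56%, against 7.69%) in Myc_Utx lines, 39 (32.8%, against 42.0%) had no overlap, and the median log2 fold change was -0.29. The pathway genes were thus called about as often as genes in general. These counts depended on single lines. Among them, 0 were called without Myc_Utx 2A or 2D, 2 (both lower) without 2B and 1 (higher) without Myc_p53 3, while 4 were higher and 14 lower without Myc_p53 1, and 13 and 12 without Myc_p53 2. Calls over all genes varied as well in these fits, from 3 to 836 higher and from 1 to 1118 lower, so this is not particular to the pathway genes. Among 15 genes of latency and activation, Furin, the protease that cuts the TGF-beta precursor, rose in Myc_Utx lines. It had 244, 209 and 263 CPM in Myc_Utx 2A, 2B and 2D and 127, 131 and 147 CPM in Myc_p53 1, 2 and 3, a clear separation (log2 fold change 0.82, SE 0.13, adjusted p = 0.0185, edgeR). Plat, the tissue plasminogen activator, fell, with 15.8, 22.7 and 8.91 against 53.9, 53 and 111 CPM (log2 fold change -2.20, SE 0.45, adjusted p = 0.0287), and the remaining 13 did not pass.

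In the BMP branch, 5 of 14 genes listed as ligands had enough counts to be tested, and Bmp6 and Bmp2 were lower. The list and the tested genes include Bmp1, which by name is a BMP but encodes a protease. Both passed the count filter through the Myc_p53 lines only, so their number says nothing of the branch, and with at least 10 counts required in every line neither was tested. Bmp6, known in the liver for its control of iron through hepcidin, had 0, 2.81 and 0.223 CPM in Myc_Utx 2A, 2B and 2D and 113, 50.05 and 51.2 CPM in Myc_p53 1, 2 and 3. It was near 0 in all Myc_Utx lines (0, 15 and 1 counts) and present in all Myc_p53 lines (log2 fold change -6.05, SE 0.98, adjusted p = 0.0188, edgeR). Bmp2 also fell, at a low level of 0.891 to 0.997 against 2.28 to 5.19 CPM (log2 fold change -1.96, SE 0.43, adjusted p = 0.0344), but did not pass with no filter on low counts (adjusted p = 0.0715) or when any 1 of the 6 lines was dropped (0.0600 to 0.128). Of 11 other receptor genes tested, Bmpr1b, a type I BMP receptor, rose (3.20, SE 0.66, adjusted p = 0.0296), from 2, 6 and 1 counts in Myc_p53 to 20, 31 and 20 counts in Myc_Utx lines. It too passed the filter through 1 group only and was not tested with at least 10 counts in every line. None of the 11 fell (1 at an unadjusted p under 0.05, 0 with DESeq2). Of 5 BMP target genes tested, Id2, an inhibitor of basic helix-loop-helix factors, fell from 117, 211 and 188 CPM in Myc_p53 1, 2 and 3 to 17, 43.6 and 20.04 CPM in Myc_Utx 2A, 2B and 2D (log2 fold change -2.67, SE 0.42, adjusted p = 0.0185). All 5 had negative log2 fold changes, among them Smad6, which is also counted with the SMAD genes above. Id1 (adjusted p = 0.438, edgeR), Id3 (adjusted p = 0.619) and Atoh8 (adjusted p = 0.269) did not pass and overlapped between the groups.

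None of 4 activin, nodal and GDF ligand genes and none of 10 extracellular antagonist genes passed the test in edgeR (0 and 1 at an unadjusted p under 0.05, and 0 in both lists with DESeq2). The best expressed of them, Inhba (an activin subunit, log2 fold change 1.40, adjusted p = 0.410), Gdf15 (0.03, adjusted p = 0.989), Fstl1 (a follistatin-like protein, -0.16, adjusted p = 0.908) and Bgn (the matrix proteoglycan biglycan, 1.47, adjusted p = 0.568), overlapped between the groups.

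Inside the cell, 3 of 19 inhibitors and 3 of 20 SMAD partners and adaptors passed, against 14.7% of all genes tested. Trim28, a corepressor and relative of the Smad4 ligase Trim33, rose (0.49, SE 0.09, adjusted p = 0.0256, edgeR), and so did Strap, which binds the receptors together with Smad7 (0.70, SE 0.16, adjusted p = 0.0373). Sik1, a kinase known to promote turnover of the type I receptor, fell (-1.49, SE 0.35, adjusted p = 0.0405). Among the partners, the deubiquitinase Usp15 rose (0.55, SE 0.10, adjusted p = 0.0213), while the endosomal SMAD anchor Zfyve16 (-0.71, SE 0.16, adjusted p = 0.0368) and the spectrin Sptbn1, an adaptor for Smad3 and Smad4, fell (-0.91, SE 0.15, adjusted p = 0.0190). With offsets for transcript length, Sptbn1 (-0.58, adjusted p = 0.0604), Zfyve16 (-0.56, adjusted p = 0.0674) and Strap (0.64, adjusted p = 0.0514) did not pass, and Usp15 was at 0.89. With DESeq2, 7 inhibitors and 4 partners were called lower and 2 of each list higher, while 24.2% of all genes were called in either direction. The inhibitors called lower there include Smad6, which is also among the SMAD genes above.

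Of 30 TGF-beta target genes tested, 3 were higher in Myc_Utx lines and none lower (edgeR, with 5 lower at an unadjusted p under 0.05 and 3 with DESeq2), and 19 had a negative log2 fold change. Over all genes tested, 6.99% were called higher and 7.69% lower. The groups did not overlap for 7 of the 30, against 42.0% of all genes, 3 of them higher and 4 lower. The 4 lower were Col4a1 (-4.45, adjusted p = 0.0792, edgeR), Tgfbi (-2.95, adjusted p = 0.132), Tsc22d1 (-1.21, adjusted p = 0.0631) and Cdkn2b (-1.01, adjusted p = 0.226). The higher ones were Cdkn1a, Timp1 and Hmox1. Cdkn1a, the cell cycle inhibitor p21, had 301, 300 and 243 CPM in Myc_Utx 2A, 2B and 2D and 12.8, 5.38 and 26.4 CPM in Myc_p53 1, 2 and 3. This wide gap (log2 fold change 4.23, SE 0.54, adjusted p = 0.0156, edgeR) concerns a gene that p53 is known to induce too, and the Myc_p53 lines are those with the p53 knockout. Timp1, a metalloproteinase inhibitor (1.86, SE 0.38, adjusted p = 0.0288), and Hmox1, heme oxygenase (1.62, SE 0.41, adjusted p = 0.0474), were also higher, but not with length offsets (1.54, adjusted p = 0.0553, and 1.42, adjusted p = 0.0705). With a line left out, the genes of the pathway lists named as changed, other SMADs aside, passed in 0 (Bmp2 and Zfyve16) to 3 of the 6 fits each.

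**Figure D5:**
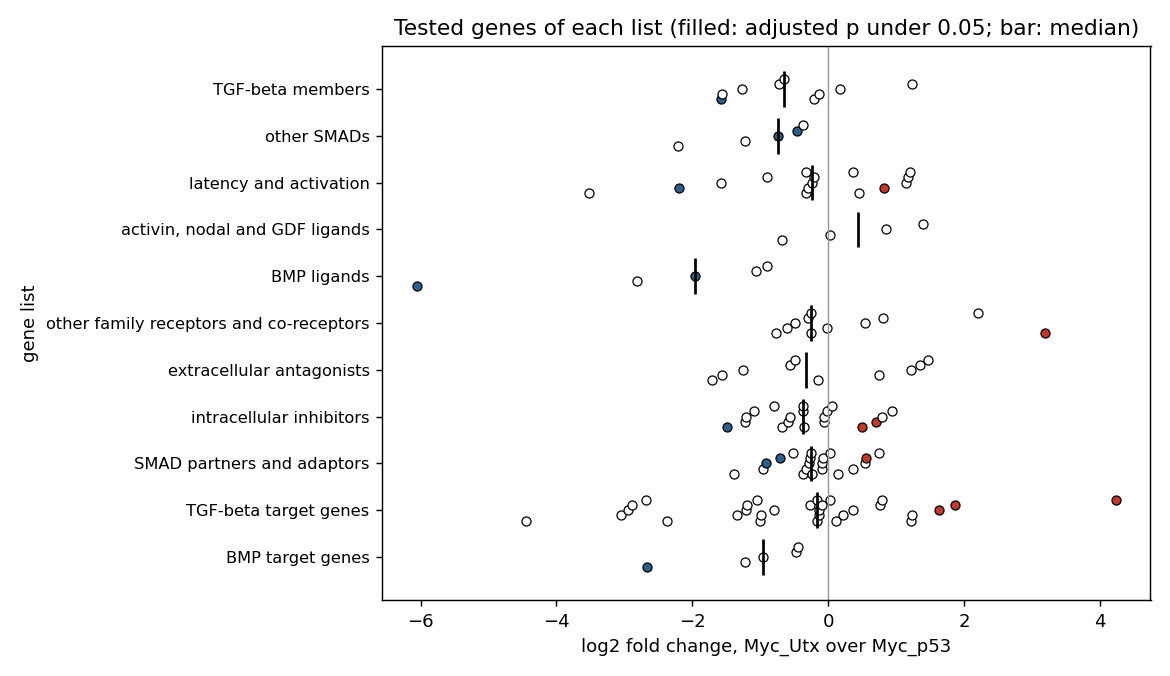
Log2 fold change (Myc_Utx over Myc_p53) of every tested gene in each list, with the list's median as a bar and filled points for an adjusted p under 0.05, red higher and blue lower. Among the BMP ligand genes Bmp6 lies at -6.05, and Cdkn1a lies at 4.23 among the TGF-beta target genes.

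The members also varied by line within each group. Myc_Utx 2A had the highest level of its group for 7 of the 9 members and Myc_Utx 2D the lowest for 7. Myc_p53 1 was lowest of its group for 6 members, and Myc_p53 2 was the highest of all 6 lines for 6 members. These Myc_p53 lines also differed in cell type markers. The summed level of 15 hepatic stellate cell and fibroblast markers was 42.5 CPM in Myc_p53 1, 3170 in Myc_p53 2, 727 in Myc_p53 3 and 1954 to 2693 in the Myc_Utx lines. It was mostly Col3a1 in the Myc_Utx lines and Myc_p53 2, with 10.3 CPM of Col3a1 in Myc_p53 1 and 73.9 CPM in Myc_p53 3. Not all markers had this order. Col1a1 and Acta2 had 236 and 221 CPM in Myc_p53 3, against 4.01 to 35.3 and 6.58 to 18.2 CPM in the Myc_Utx lines. Pdgfrb, like Col3a1, was lower in Myc_p53 3 (100 CPM) than in the Myc_Utx lines (115 to 272 CPM). Lrat was at 0 in all lines, and none of the 6 markers tested was called (edgeR, 0 also at an unadjusted p under 0.05). Krt8 had 717, 15.4 and 446 CPM in Myc_p53 1, 2 and 3 and 0 to 37.4 CPM in Myc_Utx lines. The part of these differences in the levels of the members was not tested.

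Of 16 macrophage markers, 8 were tested. Csf1r, C1qa, C1qb, C1qc, Lyz2 and Mmp12 had 0 to 5 counts in every Myc_Utx line and entered the test through the Myc_p53 lines only, so their lower calls are given with no weight, while Cd14 was higher in Myc_Utx lines. The sum of the 16 was 37.9 to 56.0 CPM in Myc_Utx, mostly Cd14, and 62.5 to 140 CPM in Myc_p53 lines. Without Cd14 it was 2.79 to 6.18 CPM against 43.6 to 119 CPM, with Clec4f, Vsig4 and Timd4 at 0 in every line. The summed level of 10 endothelial markers, mostly Flt1, was 3.79 to 26.8 CPM against 31.4 to 103 CPM, and 7 lymphocyte markers summed to at most 0.316 CPM. The sum of 7 cholangiocyte and progenitor markers was 821 to 1689 CPM against 306 to 1747 CPM, with Spp1 the largest part except in Myc_p53 2. Between the groups, macrophage and endothelial sums had the direction of Smad3, but each rested on few genes. The macrophage difference was mostly in the genes given no weight above. The endothelial one was mostly Flt1 (2.99 to 23.4 against 29.2 to 100 CPM), while Pecam1, Cdh5, Kdr and Tek had at most 4 counts in any line. Within the Myc_p53 lines, Myc_p53 2 had the highest Smad3 (199 CPM) and the lowest macrophage sum (62.5 CPM). Its endothelial sum was 39.3 CPM, against 103 CPM in Myc_p53 1, the line with the lowest Smad3 of this group (126 CPM). The part of these markers in the difference of Smad3 was not tested.

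The 3 members with the largest log2 fold changes in size were Smad3, Tgfbr3 and Tgfb3. Over the 6 lines, and among 9279 genes with a mean of at least 10 CPM, the log2 CPM of Smad3 was most like that of Zzef1 (Pearson's r 0.997), Mllt10 (0.997) and Zfp426 (0.995). Tgfbr3 was most like Slc44a1 (0.991), Ifnar1 (0.990) and Virma (0.988), and Tgfb3 most like Arhgap28 (0.990), Nsfl1c (0.990) and Zeb1 (0.989), a repressor of epithelial genes that is itself on the target list. The points share 6 libraries, and the values were picked as the highest of 9279 over 6 points, so they describe the lines only. Of the 9 genes, Zzef1 (log2 fold change -0.63, adjusted p = 0.0300, edgeR) and Mllt10 (-0.79, adjusted p = 0.0206) were called lower, at less change than Smad3, and Zzef1 did not pass with length offsets (-0.30, adjusted p = 0.169).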

How the data were processed

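Libraries of 3 Myc_Utx and 3 Myc_p53 lines were compared. The deposited values are whole-number counts for each Ensembl gene, which the authors did not normalize, with a transcript length. The submitters' processing notes name Trimmomatic 0.36, STAR 2.5.3a, featureCounts 1.6.3, DESeq2 1.20.0 and GRCm38/mm10, whereas the study's methods name HTSeq, a human build and an Mll3 group for RNA sequencing. The labels were followed. For 95.9% of genes the coordinates are those of GENCODE M21, a GRCm38 annotation.

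The model was fitted in edgeR 4.0.16 under R 4.3.3 after filterByExpr (minimum count 10) and TMM. It used the quasi-likelihood F test with p adjusted by Benjamini-Hochberg over the 11510 genes tested, with a call at an adjusted p under 0.05. The SE was obtained from F and the log2 fold change. Shares and single values were compared with two-sided exact permutation tests. The common dispersion was 0.112. On simulated counts, 68.4% of 196 genes changed by 2 on the log2 scale were recovered, and 4.29% of calls were false.

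The members and lists were chosen with earlier results of these data known. Named are all members, Kdm6a and the p53 gene as a check of the labels, in each pathway list the genes called (the 2 best expressed where none was), and the 3 genes most like each of the 3 members with the largest log2 fold changes. Alternatives were no filter, at least 10 counts in every line, DESeq2 size factors, total counts only, length offsets (MASS 7.3.60.0.1, robust fits on a natural spline with 5 degrees of freedom), DESeq2 1.42.0, an adjusted p under 0.1, and leaving out each line. Lengths of the longest GENCODE M21 transcript for the shares were added after seeing the data. Reads were not realigned. Protein and phosphorylation were not measured in these files.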

Additional observations from a re-analysis of the deposited data

How the results depend on the processing

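No paired analysis was possible because Myc_Utx lines are numbered 2A, 2B and 2D and Myc_p53 lines 1, 2 and 3, with no number in common. With a line left out, Tgfb1 ranged from 0.80 to 1.53 on the log2 scale, Tgfb2 from -0.96 to -0.48, Tgfb3 from -1.83 to 0.15, Tgfbr1 from -0.10 to 0.42, Tgfbr2 from -0.82 to -0.51, Tgfbr3 from -2.24 to -0.79, Smad2 from -0.31 to -0.02, Smad3 from -1.74 to -1.40 and Smad7 from -0.56 to 0.26 (0.07 without Myc_Utx 2D). Smad3 passed in 2 of these 6 fits. Members called lower ranged from 0 to 2, those of the pathway lists 0 to 13 (higher) and 0 to 14 (lower), and of all genes 3 to 836 (higher) and 1 to 1118 (lower). In the 6 alternatives with all lines, Smad3 had log2 fold changes of -1.63 to -1.49 and adjusted p of 4.86e-08 to 0.0211. DESeq2 called 1268 genes higher and 1514 lower, 2 members lower (Tgfbr2 at -0.67 beside Smad3) and of the pathway genes 12 higher and 22 lower. At an adjusted p under 0.1, 1461 genes were higher and 1629 lower, with 2 members lower and 11 pathway genes higher and 20 lower. Log2 fold changes fell with transcript length over the genes tested (Spearman's rho -0.249, across genes). Length offsets gave 689 genes higher against 805 and 589 lower against 885 (53.9% of calls higher, against 47.6%), and a median of -0.46 over the members. The 9 shares kept their direction in every alternative run. Of other genes, Gdf15 turned to -0.0373 with total counts only and -0.15 with length offsets, and with length offsets Virma turned to 0.00984 and Zeb1 to 0.11. With a line left out, the sign turned for Gdf15 (-0.67 to 0.52), Fstl1 (-0.69 to 0.91), Bgn (-0.31 to 4.11), Arhgap28 (-3.42 to 0.84), Nsfl1c (-0.0919 to 0.0191) and Zeb1 (-0.25 to 0.0478). Over the other named genes, a call was lost in 94 fits. The cause was not tested for any of these changes. Counts per member and line ran from 25 (Tgfbr3 in Myc_Utx 2D, the least precise by counting) to 1127.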
